A study of Mus musculus with 5 samples.

Results

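The genes described here are the rows of the mouse retinal count table whose symbol ends in -ps with or without a number, the suffix that marks a pseudogene named after a working gene, and that held more than 10 estimated counts in at least 2 of the 5 libraries. Of 1549 such rows, 146 met this rule, out of 33635 genes in the table and 17432 genes that were tested under the same count filter. The rule did not use the labels of the groups, but 8 members met it through the libraries of a single group, 1 through FDM and 7 through the controls, and for these the rule is tied to the contrast. The symbol before -ps gave the parent gene: it was in the table for 109 members, which had 88 different parents, and 86 of these parents were tested. The other 37 members had no gene of that symbol in the table.

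The study asked which retinal transcripts change in form-deprivation myopia (FDM). In this model a diffuser goggle over an eye removes sharp images and the eye becomes short-sighted. For these mice the study reported a myopic shift of the goggled eyes and no significant change in axial length. Retinas came from male wild-type C57BL/6J mice at postnatal day 42. The FDM group (2 libraries, FDM 1 and FDM 3) was the right eye, goggled from postnatal day 28 for 2 weeks, and the control group (3 libraries) was the uncovered left eye of goggled mice, so the controls are fellow eyes and not eyes of untouched animals. Labels and the study's numbering put FDM 1 with Control 1, and the numbering of the count table puts FDM 3 with Control 3.

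A processed pseudogene arises when a messenger RNA is copied back into DNA and inserted elsewhere in the genome, so it lacks the introns of its parent and starts out as a copy of the mature transcript. Genes transcribed at a high level in the germ line, such as those for ribosomal proteins, have left many such copies. An unprocessed pseudogene is instead a duplicated gene with its exons and introns that no longer codes for a full protein. Short reads from a near-identical copy and from its parent look the same over most of their length, and the counting program divides such reads between the genes by estimation.

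Depth was similar in all libraries, at 40599047 to 56534931 estimated counts, and the 13 retinal markers checked (among them Sag of rods and Opn1sw of cones) summed to between 21773 and 26137 CPM, counts scaled to a common library size. Lens markers summed to 2090 CPM in FDM 3 and to 2.65 to 20.2 CPM in the other 4 libraries, and markers of retinal pigment epithelium to 197 CPM in Control 2 and 178 CPM in Control 3 against 48.5 to 58.9 CPM in the rest. Of the retinal, lens and pigment epithelium markers in the table, none was at 0 in any library. The part of the lens and pigment epithelium signal in the results below was not tested.

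The label of processed pseudogenes held for 93 of the 146 members in the GENCODE M21 annotation of the mouse genome (GRCm38). Of these, 87 had a single exon. Another 34 members were annotated as unprocessed pseudogenes, with a median of 4 exons, 3 as unitary pseudogenes and 16 as protein-coding genes. By function of the parent, 46 members were copies of ribosomal protein genes, 2 of respiratory chain genes, 2 of chromatin protein genes and 1 of a translation factor gene. Chemosensory receptor pseudogenes made up 4 members under the older symbols, and a further 6 members carried the newer olfactory receptor symbols that begin with Or. The remaining members, those 6 included, numbered 91 and had no shared family.

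Members at the edge of the rule had few counts. The 11 members whose second highest count was 11, among them Rpsa-ps2, Gpi-ps and Ccl19-ps4, reached at most 20 counts in a library apart from Rpsa-ps2 at 24. The 6 rows just below it, whose second highest count was 10, such as Ldha-ps and Rpsa-ps9, reached at most 12. Outside the rule, 887 of the 1403 remaining -ps rows were at 0 in every library, and the highest count in any of them was 41, for Eif4a-ps4. Within it, 104 members had more than 10 counts in all 5 libraries and 16 in exactly 2.

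Sequence set how far a member could be told from other genes. The 4 pairs below each show a stretch of 90 bases, taken inside the coding part of the parent where copy and parent differ most, read 5′ to 3′ on the strand of each gene from GENCODE M21 transcripts (GRCm38). Capitals mark the bases that differ within the pair. They are shown because 3 are called members whose few differences are all that separates them from the parent here, and the last is a copy that no short read can separate.
Cox7c-ps1: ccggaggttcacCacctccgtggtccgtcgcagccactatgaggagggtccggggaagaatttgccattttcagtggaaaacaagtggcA
Cox7c: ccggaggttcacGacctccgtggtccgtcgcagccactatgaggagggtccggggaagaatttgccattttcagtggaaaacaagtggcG
Rpsa-ps2: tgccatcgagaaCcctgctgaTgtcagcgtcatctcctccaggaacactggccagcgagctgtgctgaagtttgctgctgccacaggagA
Rpsa: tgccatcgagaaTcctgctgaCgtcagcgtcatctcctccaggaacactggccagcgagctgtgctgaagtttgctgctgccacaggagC
Rpl9-ps7: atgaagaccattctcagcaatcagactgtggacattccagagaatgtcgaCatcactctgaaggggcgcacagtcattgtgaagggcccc
Rpl9: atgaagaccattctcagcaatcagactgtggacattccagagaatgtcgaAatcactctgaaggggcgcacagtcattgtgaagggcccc
Atp6-ps: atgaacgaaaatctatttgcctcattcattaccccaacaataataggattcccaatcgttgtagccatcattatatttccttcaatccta
mt-Atp6: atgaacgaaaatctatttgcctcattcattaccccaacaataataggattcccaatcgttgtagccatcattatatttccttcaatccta

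The stretch of Cox7c-ps1 lies at chr17:25901879-25901968 (+ strand) in its only exon, and that of Cox7c at chr13:86045838-86046658 (- strand) across 2 exons, so the copy has lost the intron. The same holds for Rpsa-ps2 at chr10:128776965-128777054 (- strand) against Rpsa at chr9:120129222-120130152 (+ strand) and for Rpl9-ps7 at chr2:70458982-70459071 (+ strand) against Rpl9 at chr5:65390811-65390991 (- strand). Atp6-ps lies at chr1:24614562-24614651 (- strand), on a chromosome of the nucleus, and matches the mitochondrial gene mt-Atp6 at chrM:7927-8016 (+ strand) with 0 differences. In these stretches Cox7c-ps1 differed from its parent at 2 bases, Rpsa-ps2 at 3 and Rpl9-ps7 at 1.

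To put this on a scale for all members, the transcripts of each member were split into words of 31 bases, the word length that the counting program uses by default, and each word was looked up in every other gene of GENCODE M21. Among these annotated transcripts, a word held by no other gene points to a single gene. Sequence outside annotated transcripts was not compared. The share of such unique words had a median of 31.4% over the members. It was 0% for 22 members, over 0 to 10% for 25, over 10 to 50% for 40 and over 50% for 59. The median was 21.5% for processed pseudogenes and 71.3% for unprocessed ones. Against the parent, the aligned stretch of the 109 pairs had a median identity of 98.8%, with 62 pairs over 98% and 20 pairs under 90%. Fth-ps2 had 95.5% unique words, Cox7c-ps1 27.2%, Rpsa-ps2 15.4%, Rpl9-ps7 11.3% and Atp6-ps 0%.

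In the comparison of FDM with control, 7 of 146 members had an unadjusted p under 0.05, the threshold that the study used (edgeR quasi-likelihood test), 2 of them higher and 5 lower in FDM. Over all genes tested, 1.61% passed, 0.453% higher and 1.16% lower. No member passed after Benjamini-Hochberg adjustment over all 17432 genes (adjusted p = 1.0 for each of the 7), and in this edgeR fit no tested gene did. Of the parents, 0 of 86 passed the unadjusted threshold in edgeR and 0 in DESeq2. The 7 were Cox7c-ps1, Fth-ps2, Rps6-ps1, Rpl9-ps7 and Rpl17-ps3 on the lower side and Rpsa-ps2 and Ftl1-ps1 on the higher side. Of them, 6 are processed pseudogenes or, for Cox7c-ps1, a transcribed processed pseudogene, and Ftl1-ps1 is annotated as a protein-coding gene of 4 exons. Of the 7, 5 had a mean under 50 counts. Rpsa-ps2 met the count filter only through FDM, and Cox7c-ps1, Rps6-ps1 and Rpl17-ps3 only through the controls, so these 4 of the 7 were selected on the side where they are high, and neither their calls nor their non-overlap are independent of the filter. DESeq2 called 5 members, 4 of them among these 7, and 0 after adjustment. Over all 17432 genes it called 172, and 3 passed adjustment. Retina was sequenced as whole tissue, so fewer cells of a type and less RNA per cell cannot be told apart.

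Cox7c-ps1 (ENSMUSG00000057580, chr17:25901856-25902227) fell most. Its parent Cox7c encodes a small structural subunit of cytochrome c oxidase, the last complex of the respiratory chain. The copy held 3 counts in FDM 1 and 5 in FDM 3, against 24, 17 and 25 in Control 1, 2 and 3. Both FDM libraries lay below every control. This was 0.0866 ± 0.0246 CPM (SD, n = 2) in FDM and 0.475 ± 0.158 CPM (SD, n = 3) in control, a log2 fold change of -2.39 ± 0.51 (SE; edgeR adjusted p = 1.0). Cox7c itself held 2993 and 3400 counts in FDM 1 and FDM 3 and 2827, 4085 and 3803 in the controls, a log2 fold change of -0.09 ± 0.09 (SE), which did not pass. In CPM both FDM libraries of Cox7c also lay below every control, at 69.0 and 70.7 against 70.8, 71.7 and 80.1. The lack of overlap was thus not particular to the copy. When single libraries were left out, the log2 fold change of Cox7c-ps1 ran from -2.71 to -2.14, and the call was kept without any 1 of the controls. The copy met the count filter only through the controls, and these refits kept the same filtered genes, so they are not independent of the filter.

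Rpsa-ps2 (ENSMUSG00000045055, chr10:128776371-128777250) had the highest fold change of the members, and it is also the one member that met the count filter through FDM alone. Rpsa is a protein of the small ribosomal subunit that is also known as a laminin receptor. The copy held 11 and 24 counts in FDM 1 and FDM 3 and 0, 8 and 2 in Control 1, 2 and 3, so that the groups did not overlap although all values were small. The log2 fold change was 2.44 ± 0.77 (SE; edgeR adjusted p = 1.0), from 0.376 ± 0.173 CPM (SD, n = 2) in FDM and 0.0608 ± 0.0720 CPM (SD, n = 3) in control. A count of 0 in Control 1 allows up to 3 counts, or 0.0751 CPM, for counting error only. Rpsa held 11594 to 16117 counts per library and had a log2 fold change of -0.06 ± 0.11 (SE). The copy lost its call without FDM 3 (log2 fold change of 1.87) or without Control 3 (2.21) and in limma with a pseudocount of 0.1 (3.90). Without Control 2 the log2 fold change was 3.91. Another copy of the same gene, Rpsa-ps10, held 31 and 38 counts in FDM and 84, 27 and 65 in control, where the groups overlapped.

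Copies of both ferritin chains were called, in opposite directions. Ferritin is the protein shell that stores iron in the cell, with the light chain Ftl1 and the heavy chain Fth1, which oxidizes the iron. Ftl1-ps1 (ENSMUSG00000062382, chr13:74399694-74407346) held 115 and 82 counts in FDM 1 and FDM 3 and 53, 70 and 73 in the controls. It rose by a log2 fold change of 0.67 ± 0.24 (SE; edgeR adjusted p = 1.0), from 1.36 ± 0.158 CPM (SD, n = 3) to 2.18 ± 0.670 CPM (SD, n = 2). Most of that difference was in FDM 1, and without it the log2 fold change was 0.32 and the call was lost; it was also lost without Control 2 (0.61) and in limma with either pseudocount (0.52 and 0.53). Ftl1 held 7726 to 11553 counts, with a log2 fold change of -0.14 ± 0.12 (SE).

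Fth-ps2 (ENSMUSG00000091313, chr6:39653450-39653965) is the one called member whose words separate it well from every other gene of GENCODE M21. No gene named Fth is in the table, and Fth1, the heavy chain gene, was taken as its parent after the values were seen. The copy held 50 and 66 counts in FDM 1 and FDM 3 and 78, 90 and 85 in the controls, and fell by a log2 fold change of -0.48 ± 0.20 (SE; edgeR adjusted p = 1.0). Fth1 held 15729 to 21479 counts, and its log2 fold change was -0.04 ± 0.11 (SE). The call was lost in DESeq2 (-0.48), with the block by the labels and without FDM 1, FDM 3, Control 1 or Control 3 (-0.62 to -0.37).

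The remaining called members were 3 copies of ribosomal protein genes with few counts. Rps6-ps1, a copy of the gene for a small subunit protein that is phosphorylated downstream of the mTOR kinase, held 5 and 9 counts in FDM and 14, 15 and 15 in control, a log2 fold change of -1.0 ± 0.41 (SE; edgeR adjusted p = 1.0). Rpl9-ps7, a copy of a large subunit gene, held 13 and 15 counts in FDM and 17, 28 and 32 in control, a log2 fold change of -0.79 ± 0.33 (SE; edgeR adjusted p = 1.0). Rpl17-ps3, another large subunit copy, held 9 and 0 counts in FDM and 23, 19 and 16 in control, a log2 fold change of -2.01 ± 0.84 (SE; edgeR adjusted p = 1.0). In all 3 both FDM libraries lay below the controls. Each lost its call without several single libraries: Rps6-ps1 without any of the 5, Rpl9-ps7 without any except Control 1, and Rpl17-ps3 without FDM 3 (-0.97) or any of the controls. DESeq2 lost Rps6-ps1 (-1.01) and Rpl9-ps7 (-0.79), and limma lost Rpl17-ps3 with either pseudocount. Without FDM 1 the remaining FDM library of Rpl17-ps3 was at 0, so its fitted value then sets no bound. Their parents Rps6, Rpl9 and Rpl17 held 6350 or more counts in every library and had log2 fold changes of -0.12, -0.10 and -0.05.

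**Figure D1:**
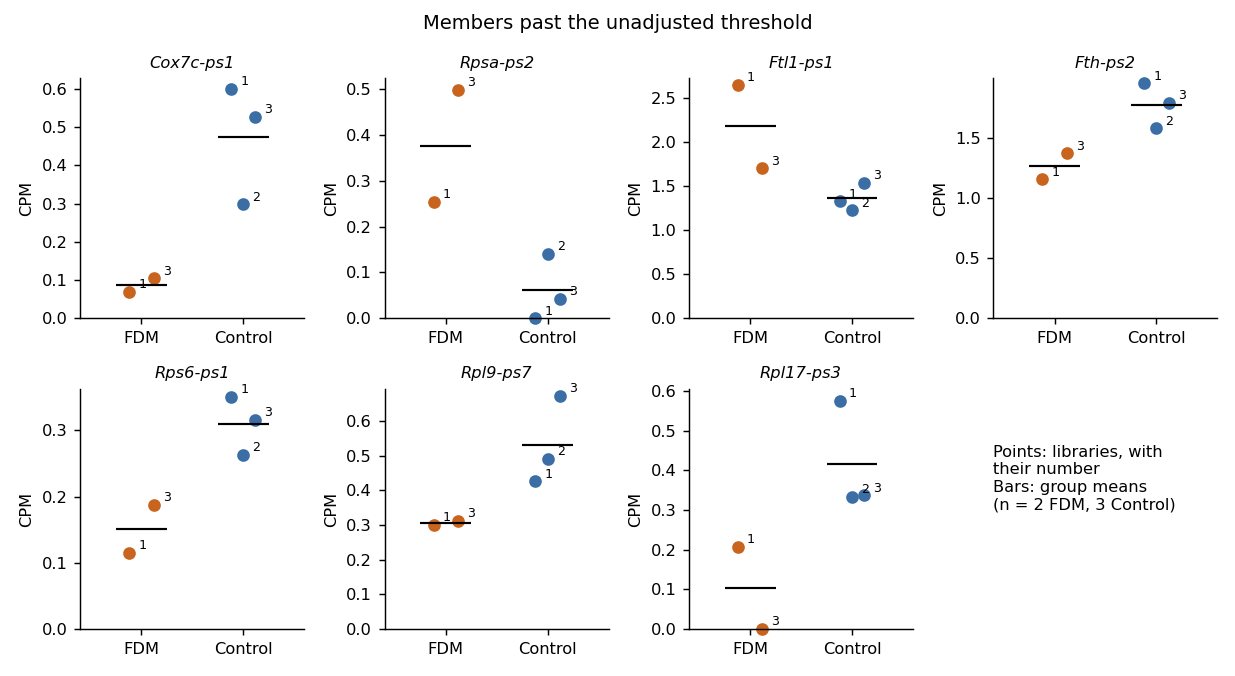
CPM (vertical axis) of the 7 called members in FDM and control libraries, with 1 point per library, its number beside it, and a bar at the group mean (n = 2 and 3). In every panel the points of the groups do not overlap, and the FDM mean of Cox7c-ps1 is 0.0866 CPM against 0.475 CPM in control.

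Libraries of the groups did not overlap in 22 members: both FDM libraries lay below every control in 13 and above every control in 9. Over all genes tested, the FDM libraries lay below every control in 6.67% and above in 3.97%. All 7 called members were among the 22. Over the 146 members the median log2 fold change was -0.01, and 67 were above 0, while the median over all genes tested was also -0.01. The fold change lay between -0.5 and 0.5 on the log2 scale in 119 members and beyond 1 in either direction in 8, of which 5 were not called.

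With the mouse as a block, as numbered in the count table, 22 of 146 members (8 higher and 14 lower) and 18 of 86 parents (2 higher and 16 lower) passed the unadjusted threshold, where 7.23% of all genes did and 3.67% were lower. This fit draws on FDM 1 with Control 1 and FDM 3 with Control 3 and leaves 1 residual degree of freedom. Of the 7 called members, 5 stayed called: Cox7c-ps1 (-2.65), Rpsa-ps2 (3.95), Ftl1-ps1 (0.57), Fth-ps2 (-0.56) and Rpl17-ps3 (-2.25). Rps6-ps1 (-1.11) and Rpl9-ps7 (-0.84) did not. Among the parents Ftl1 (-0.18) and Rpl9 (-0.14) passed the unadjusted threshold in this fit. With the numbers of the labels as a block, which put FDM 3 with Control 2, 14 members and 0 parents passed (2.52% of all genes). After adjustment 4 members passed: Cox7c-ps1, Rpl17-ps3, Rpl30-ps9 and Gpx4-ps2. Cox7c-ps1 and Rpl17-ps3 met the count filter only through the controls. Over all 17432 genes tested, 128 passed adjustment in this fit. Fth-ps2 (-0.47), Rps6-ps1 (-0.97) and Rpl9-ps7 (-0.58) lost their calls there. The value of Gpx4-ps2 in that fit (7.40) rests on both paired controls being at 0, and it did not pass with the block of the count table (1.01). Rpsa-ps10 was called with the block of the count table (-1.17), opposite in direction to Rpsa-ps2, and not with that of the labels (-0.50).

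Pisd-ps1, which fell just short of the threshold, was the one abundant member with a fold change near it. Pisd encodes the mitochondrial enzyme that makes phosphatidylethanolamine from phosphatidylserine. The member is an unprocessed pseudogene of 7 exons at chr11:3125904-3131004 with 72.3% unique words, so its counts rest mostly on its own sequence. It held 1797 and 1902 counts in FDM 1 and FDM 3 and 1547, 1665 and 1505 in the controls. In CPM this was 40.5 ± 1.35 (SD, n = 2) against 33.2 ± 4.95 (SD, n = 3), and the lowest FDM value, 39.5 CPM, was near Control 1 at 38.7 CPM. The log2 fold change was 0.29 ± 0.13 (SE; edgeR adjusted p = 1.0). It passed the unadjusted threshold with the mouse as a block by the count table (0.21), in DESeq2 (0.29), in edgeR with DESeq2 size factors (0.29) or with all genes of at least 1 count (0.28), and without Control 1 (0.41), and not with the block by the labels (0.27), in limma (0.28 with either pseudocount) or without any other single library. Pisd held 1745 and 1984 counts in FDM and 1708, 2256 and 1919 in control, with a log2 fold change of -0.01 ± 0.08 (SE). The second copy, Pisd-ps2, with 61.5% unique words, held 520 and 564 counts against 514, 612 and 474, and did not pass.

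Fold changes of the parents lay close to 0, and those of the members spread more widely. In the 107 pairs with both genes tested, the member lay farther from 0 than its parent in 85 pairs. The median size of the log2 fold change was 0.21 for members and 0.06 for parents, and the median of member minus parent was 0.01, with 56 differences above 0. Log2 fold changes of the parents ran from -0.25 to 0.31. Those of the members ran from -2.39 to 2.44. Members also had far fewer counts, with a median of 53.1 against 4840 for parents. Under 50 counts the median size of the log2 fold change was 0.26 over members and 0.25 over all genes. At 500 or more counts it was 0.07 over members, 0.06 over parents and 0.05 over all genes.

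**Figure D2:**
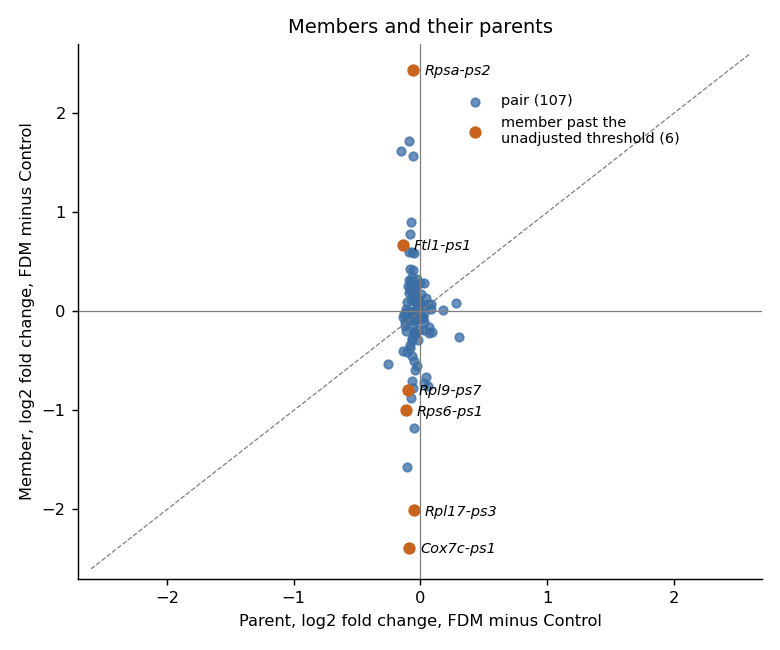
Log2 fold change (FDM minus control) of each member (vertical axis) against that of its parent (horizontal axis) on equal scales, with 1 point per pair (107), the 6 called members with a parent of the same symbol in orange, and a dashed line where both would be equal. The points form an upright band: parents lie between -0.25 and 0.31, and members between -2.39 and 2.44.

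The log2 ratio of the member's to its parent's count was compared between groups by an exact two-sided permutation test over libraries for 9 pairs, the 7 called members, Pisd-ps1 and Atp6-ps. With 2 against 3 libraries the smallest p this test can give is 0.2, and it was reached by 8 of the 9 pairs (0.225 after adjustment over the 9). The 7 called members were picked from these same libraries and their groups did not overlap, so reaching 0.2 adds no support for them. Rpsa-ps2 also met the count filter only through FDM, and Cox7c-ps1, Rps6-ps1 and Rpl17-ps3 only through the controls. The ratio of Cox7c-ps1 to Cox7c was lower in FDM by a log2 difference of -2.19 and that of Rpsa-ps2 to Rpsa higher by 3.05. For Pisd-ps1 to Pisd the ratio was higher by 0.30.

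Among the working genes of the same pathways, 0 of 85 ribosomal protein genes and 1 of 85 respiratory chain and ATP synthase genes passed the unadjusted threshold. Over all genes tested 1.61% passed it. Their median log2 fold changes were -0.07 and -0.06, against -0.01 over all genes tested. The gene that passed was Cox8b, the muscle and heart form of a cytochrome c oxidase subunit, which was lower in FDM by -1.71 ± 0.64 (SE; edgeR adjusted p = 1.0). Skeletal muscle markers summed to 55.8 CPM in Control 3 and to 9.24 to 10.7 CPM in the other libraries. Without Control 3 the log2 fold change was -0.86 and still passed, and the call was lost without FDM 1 (-1.90) or FDM 3 (-1.54) and in limma (-1.42 and -1.45).

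Counts of the most abundant members were large and steady. Ubb-ps, a copy of the polyubiquitin gene Ubb, had the highest CPM of all members: it held 11446 and 12016 counts in FDM 1 and FDM 3 and 10721, 12237 and 13984 in the controls. Next came Rps12-ps3, Rps23-ps1, Rpl27-ps3 and Rpl10-ps3, all copies of ribosomal protein genes. Rps12-ps3 held 3971 and 5075 counts in FDM and 3970, 5657 and 5647 in control, and Rps12 itself 716, 824, 633, 914 and 837 in the same order. Rpl27-ps3 held 3575, 4083, 3280, 4474 and 4506 counts and Rpl27 411, 582, 487, 608 and 600. In both pairs the copy thus held several times the count of its working parent in every library.

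Over the stretch that aligns, the 4 ribosomal protein copies cannot be told from their parents, while Ubb-ps had 10 mismatches to Ubb in 685 aligned columns and 8.94% unique words. Rps12-ps3, Rps23-ps1 and Rpl27-ps3 had 0% unique words and all of their words in the parent, and Rpl10-ps3 had 3.39% unique words. Of the 109 pairs, 18 were identical over at least 150 aligned bases, 11 of them ribosomal protein copies, and 15 of the 18 copies had no unique word. The share of the pair's counts assigned to the identical copy ran from 2.16% (Apoo-ps) to 88.1% (Rpl27-ps3), with a median of 32.3%. This is how the counting divided the reads and not a measured level of either gene. Per base of transcript, the copy to parent ratio of counts was 11.1 for Rpl27-ps3, 7.33 for Rps12-ps3, 3.22 for Rps23-ps1 and 1.75 for Rpl10-ps3.

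**Figure D3:**
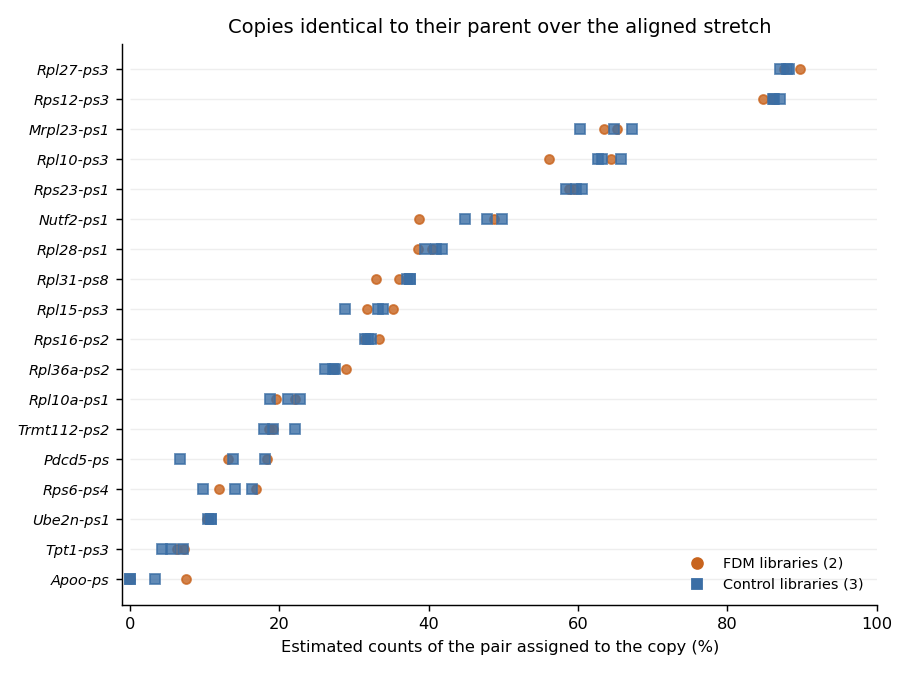
Share of the pair's estimated counts assigned to the copy (horizontal axis, %), for the 18 copies identical to their parent over the aligned stretch, with 1 circle per FDM library and 1 square per control library. The shares differ widely between pairs, from Apoo-ps to Rpl27-ps3 at 88.1%, and little between the libraries of most pairs.

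Between libraries, the division was steady for the abundant pairs. In the 15 identical pairs with a mean of 500 or more counts in the copy, the range of the share over the 5 libraries had a median of 3.21 percentage points and was at most 11.2, in Nutf2-ps1. Their log2 fold changes ran from -0.19 to 0.18, and none passed the threshold (edgeR), as did 0.517% of all genes of that count class. Ribosomal protein members and their 31 parents, summed, gave the members 15.2% and 15.6% of the counts in FDM 1 and FDM 3 and 15.4%, 15.2% and 15.8% in the controls, so the groups overlapped.

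Over all 109 pairs, the copy took a median of 1.47% of the pair's counts. It took under 1% in 52 pairs, 1 to 50% in 46 and over 50% in 11. The highest count ratios to a parent with counts belonged to Ccnb2-ps, Rpl27-ps3, Rps12-ps3, Ccl19-ps4 and Zrsr2-ps1. Ccnb2-ps, from the gene of a mitotic cyclin, held 591, 664, 513, 827 and 641 counts (FDM 1, FDM 3, Control 1, 2 and 3), where Ccnb2 held 48, 74, 50, 58 and 60. Unlike the ribosomal protein copies it had 93.6% unique words and 81.5% identity in the aligned stretch, so most of these counts rest on its own sequence. Zrsr2-ps1, from a splicing factor gene, was similar, with 91.8% unique words, 2640 to 3654 counts, and 67.8% of the pair. Neither passed the threshold. Ccl19-ps4, from a chemokine gene, held 6 to 14 counts and Ccl19 3 to 11, so that their ratio rests on few counts. Styx, the gene of a phosphatase-like protein without catalytic activity, was listed at 0 in every library, while Styx-ps held 1962 to 4858 counts and shared 96.6% of its words with it.

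A different picture came from 16 members whose estimated count was 0 in at least 1 library and above 0 in others. They were 11% of the members, against 4.76% of the 820 other processed pseudogenes tested and 0.637% of all genes tested, and 0 of 86 parents. Among genes with a mean under 50 counts, the shares were 13 of 72 members (18.1%), 5.89% of other processed pseudogenes and 3.16% of all genes. Of the 16, 15 are processed pseudogenes, and 7 are copies of ribosomal protein genes. Every one had few unique words: the highest share was 16.4%, in Tma7-ps, and the median 4.99%, against a median of 46.5% in the members never at 0. None of the 59 members with over 50% unique words was at 0 in a library.

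The largest swing was in Atp6-ps, a nuclear copy of the mitochondrial gene for a subunit of ATP synthase. Its parent symbol was not in the table, and mt-Atp6 was chosen after the values were seen, as the gene that shared most of its words. Atp6-ps held 0 counts in FDM 1, 6107 in FDM 3, and 2832, 1984 and 7856 in Control 1, 2 and 3. FDM 1 alone was without counts, and a count of 0 there allows up to 3 counts, or 0.0692 CPM, for counting error only. Atp6-ps had no unique word, and this bound leaves out any error in how shared reads were divided. Over the same libraries mt-Atp6 held 198808, 224648, 193477, 276439 and 229121 counts, and its highest CPM was 1.06 times its lowest. The fold change of Atp6-ps did not pass (-0.51 ± 1.49, SE), while that of mt-Atp6 was -0.06 ± 0.08 (SE).

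Apoo-ps is a copy of the gene for a protein of the inner mitochondrial membrane. It held 0 and 72 counts in FDM 1 and FDM 3 and 0, 38 and 0 in the controls. Counts were thus assigned to it in 1 library of each group. All of its words are in Apoo, which held 814, 893, 884, 1104 and 981 counts. The counts of Apoo-ps are thus how the counting divided shared reads and not a measured level. Its log2 fold change was 1.62 ± 1.5 (SE), which did not pass, and with the mouse as a block 8.26 (adjusted p = 0.016, edgeR), where FDM 3 was set against Control 3 at 0. It was the one member among the 54 genes past adjustment in that fit.

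Estimated counts of ribosomal protein copies also went between 0 and higher values, in different libraries. Rpl30-ps9 held 42 and 155 counts in FDM and 24, 72 and 0 in control. Rpl17-ps8 held 42 and 55 in FDM and 89, 84 and 0 in control, and Rpl17-ps5 held 0 and 31 in FDM and 17, 57 and 38 in control. Rpl17-ps10 held 21 and 22 in FDM and 18, 0 and 25 in control. With Rpl17-ps3, 4 copies of Rpl17 were thus at 0 in different libraries: Rpl17-ps5 in FDM 1, Rpl17-ps3 in FDM 3, Rpl17-ps10 in Control 2 and Rpl17-ps8 in Control 3. Summed, the 4 copies held 72, 108, 147, 160 and 79 counts, which was 1.06%, 1.32%, 2.26%, 1.70% and 0.913% of the counts of Rpl17 and the copies together, and the groups overlapped. The highest CPM of Rpl17 was 1.17 times its lowest.

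Among the others, Kpna2-ps, from a nuclear import receptor gene, held 28 and 23 counts in FDM and 44, 0 and 52 in control. Gpx4-ps2, from the gene of a peroxidase that removes lipid peroxides, held 25 and 17 in FDM and 0, 0 and 22 in control. Tma7-ps held 17 and 17 in FDM and 3, 27 and 0 in control. In all 16, the zeros were spread over the libraries: FDM 1 had 7 members at 0 and FDM 3 had 1, while the controls had 5, 4 and 4. Parents of these members held at least 509 counts in every library, and the highest CPM of any of them was at most 1.23 times its lowest. Of the 16, 2 were called, Rpsa-ps2 and Rpl17-ps3, both named above and both past the count filter through a single group. Over all genes tested 1.61% were called, and 3.90% of those with a mean under 50 counts.

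**Figure D4:**
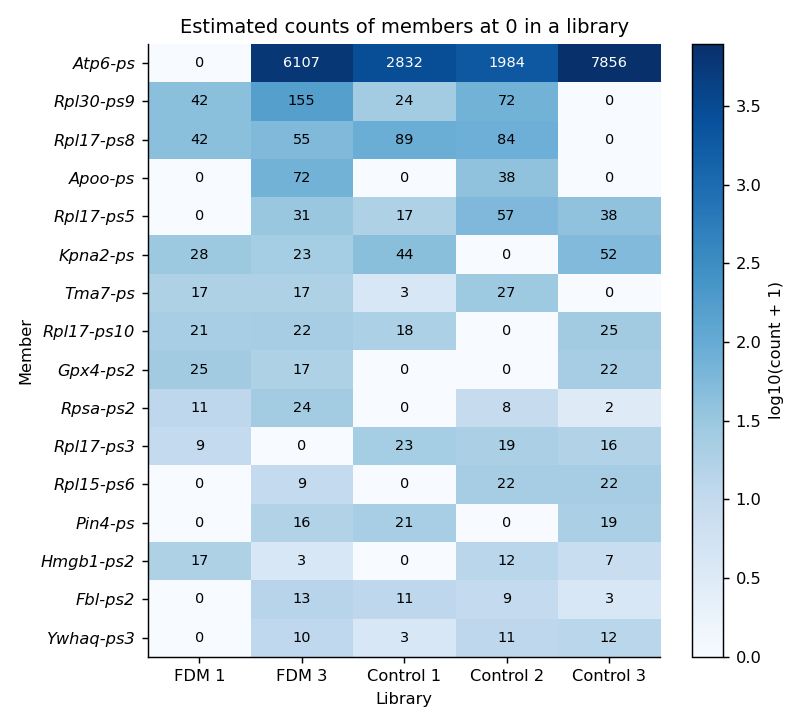
Estimated counts (printed in each cell, with colour on a log10 scale of count + 1) of the 16 members at 0 in at least 1 library (rows), by library (columns). Zeros fall in every column, 7 of them in FDM 1 and 1 in FDM 3, and the top row, Atp6-ps, goes from 0 to 7856.

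The range between libraries followed the same line. On the scale of log2(CPM + 0.05), the difference between the highest and lowest library had a median of 0.72 over members (a 1.65-fold range), 0.24 over parents (1.18-fold), 0.80 over other processed pseudogenes (1.74-fold) and 0.33 over all genes tested (1.26-fold). Over the 3 controls alone, the median SD of log2(CPM + 0.05) was 0.27 for members, 0.11 for parents and 0.15 for all genes. Genes of low count vary more, so members were also split by mean count. Under 50 counts, the median range was 6.51-fold in the 15 members with at most 10% unique words and 1.84-fold in the 57 with more, against 1.78-fold over all genes of that class. At 50 to 500 counts it was 1.91-fold in 11 members and 1.49-fold in 30. At 500 or more counts it was 1.35-fold in 21 members and 1.15-fold in 12, so the order was the same in each class. The 28 members with over 90% unique words had a median range of 1.43-fold, and 1 of them, Fth-ps2, was called, against 1.61% of all genes tested.

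**Figure D5:**
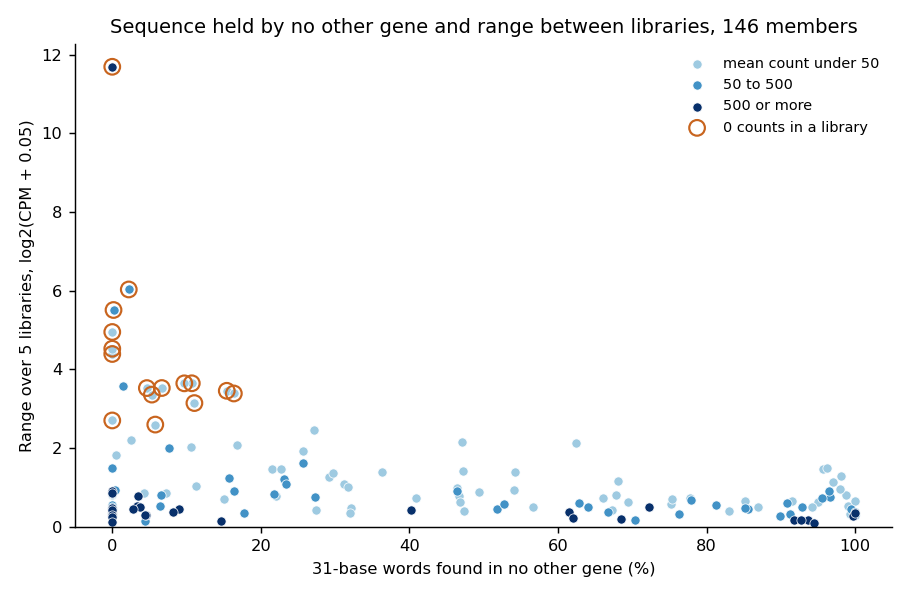
Range over the 5 libraries on the scale of log2(CPM + 0.05) (vertical axis) against the share of 31-base words found in no other gene (horizontal axis, %), with 1 point per member (146), shaded by mean count, and rings around the 16 members at 0 in a library. All rings lie at or below 16.4% unique words, and members above 50% have no ring.

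None of the 34 unprocessed and 3 unitary pseudogenes was called. Over all genes tested 1.61% were called, so 0 calls does not set these small classes apart. Their median log2 fold changes were both 0.07, with 20 of the 34 above 0. The unprocessed members had a median range of 1.48-fold and the unitary ones of 1.23-fold, and Atp6-ps was the one of them at 0 in a library. Ppp4r1l-ps, with 19 exons and 99.7% unique words, held 2741 and 2959 counts in FDM and 2469, 3412 and 2476 in control. Slc2a4rg-ps, a unitary pseudogene, held 912 and 926 counts in FDM and 891, 994 and 845 in control. In CPM, too, the groups overlapped in both.

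Pseudogenes of chemosensory receptors, proteins that detect odours and pheromones, were present at modest counts in this tissue. Among the 4 pseudogenes of vomeronasal receptors 0 were called, against 1.61% of all genes tested. Of these 4, Vmn1r-ps128, with 77.9% unique words, had the most, at 84 and 91 counts in FDM and 91, 156 and 80 in control. Or10ah1-ps1, from the odorant receptor family and annotated as protein-coding, held 406 and 493 counts in FDM and 431, 563 and 422 in control, with 89.9% unique words. Neither separated the groups. Mrgprc2-ps, from another family of sensory receptors, held 833 and 941 counts in FDM and 874, 1110 and 935 in control.

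Of the 16 members annotated as protein-coding, 1 was called (Ftl1-ps1), both FDM libraries lay below every control in 5 and above every control in 1, and the median log2 fold change was -0.14. Over all genes tested 1.61% were called, 6.67% lay below and 3.97% above. Ribosomal protein copies held 4 of the 7 calls, 1 higher and 3 lower, among 46 members. All 4 were in the 25 copies with a mean under 50 counts, where 3.90% of all genes and 5.16% of other processed pseudogenes of that class were called, and 2 of the 4 calls are of members that met the filter only through the controls and 1 only through FDM. These 25 copies had a median range between libraries of 1.38 on the log2 scale. The 13 copies with 500 or more counts held 0 calls and had a median range of 0.38. Of the 88 parents, 17 had more than 1 member, up to the 4 of Rpl17.

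Members as a whole took a small and even part of the libraries. They held 0.159% of all counts in FDM 1 and 0.180% in FDM 3, and 0.168%, 0.162% and 0.192% in Control 1, 2 and 3, so the groups overlapped: FDM 1 was the lowest library and FDM 3 the second highest. Without Atp6-ps the shares were 0.159%, 0.167%, 0.161%, 0.159% and 0.176% in the same order. Parents held 1.67% to 1.87% of all counts.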

How the data were processed

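Retinal poly-A RNA of 2 FDM and 3 control eyes was sequenced by the study in 50-base read pairs, with a kit that does not mark strand. Per the labels the authors used Trimmomatic 0.39, Salmon 1.10.1 and R 4.3.1 with build GRCm38. They deposited estimated counts per gene as whole numbers and a normalized signal from DESeq2 (used for limma only). A further FDM library had been removed by the study for its read duplication. The second FDM sample is numbered 2 in the labels and 3 in the count table. No column of per-sample values was left unused. A retinal marker and the sequence of a further pair are not reported here.

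Genes above 10 estimated counts in 2 or more libraries were tested with edgeR 4.0.16 (TMM factors, quasi-likelihood test, no covariate) in R 4.3.3 at the study's unadjusted threshold of 0.05, with Benjamini-Hochberg values over all genes beside it. The edgeR fit without a block was tested on simulated counts, in which only genes with a mean above 1 CPM were changed. That test does not cover members of lower CPM, such as Cox7c-ps1 and Rpsa-ps2. The other fits and the division of shared reads were not simulated. An SE was the fold change (log2) over the root of the F statistic. CPM used TMM factors, and ranges used log2(CPM + 0.05). Ratios of counts had 0.5 added. Intervals for counts of 0 cover counting error only. Words of 31 bases and Biopython 1.88 alignments came from GENCODE M21 transcripts, matched by gene identifier, which may not be the release the authors counted with. Alternatives were DESeq2 1.42.0, limma 3.58.1 (pseudocounts of 1 and 0.1 on the log2 normalized signal), other factors and filters, left-out libraries and blocks.

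Members and gene lists were chosen with earlier results of these data known. Members named were those past the threshold, the 5 highest by CPM, by range and by ratio to the parent, and 10 of those at 0 in a library. Cox7c-ps1, Rpsa-ps2 and Pisd-ps1 were also named because the study lists them. Other members named (such as Styx-ps, Rpsa-ps10, Pisd-ps2, Nutf2-ps1, those at the edge of the rule, and the unprocessed and receptor pseudogenes) and Cox8b were chosen after their values were seen. Eyes of the same number come from 1 mouse by the study's numbering: their deviations from the group means correlated at 0.34 (mouse 1) and 0.13 (mouse 3) over genes, and at 0.22 between FDM 3 and Control 2. With 2 FDM libraries these deviations mirror each other. Pairs of libraries differed by more than sampling noise (chi-square per degree of freedom of 12.0 or more), so none was counted as a duplicate. Each library is 1 eye, and p-values measure the spread between these libraries.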

Additional observations from a re-analysis of the deposited data

How the results depend on the processing

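The count of called members was 7, where 281 of all 17432 genes were called. It was 12 (8 higher) without Control 1, 11 without Control 2 and 5 without Control 3. Calls over all genes tested moved too, at 944, 550 and 146 genes in the same order. With only genes of a mean over 50 counts, 2 members were called (74 members were left to test) and 170 of 14743 genes. The replicate block of the count table gave 22 members (1261 of all genes), and that of the labels 14 (439). Under DESeq2, limma with either pseudocount, DESeq2 size factors in edgeR and all genes with at least 1 count, 5 to 9 members were called. Those fits called 172 to 500 genes. Of 2 alternatives added after the data were seen, members annotated as processed pseudogenes held 6 of the calls, and members with over 10% unique words also 6. The 0 called parents became 18 with the block of the count table and 1 without Control 2, and stayed 0 when parent and member counts were summed. The median member minus parent difference of 0.01 ran from -0.03 to 0.06 without single libraries and reached 0.07 with only genes of a mean over 50 counts and 0.08 in limma. The median share of the pair was 1.47%, and 2.32% with all -ps rows of a parent summed. Of 261 refits of single genes (20 genes), 18 changed sign, mostly parents near 0: with the block of the labels Rpsa was at 0.031, Fth1 at 0.054 and Rpl17 at 0.0051, Pisd was at 0.0013 with DESeq2 size factors, 0.0016 in DESeq2 and 0.13 with its members added, and mt-Atp6 at 0.0019 in limma with either pseudocount. Without single libraries Rpsa ran from -0.12 to 0.039, Fth1 from -0.11 to 0.059, Rpl17 from -0.11 to 0.012, Pisd from -0.023 to 0.029, Atp6-ps from -15.05 to 0.49 and Apoo-ps from -6.53 to 8.10, and those of Atp6-ps and Apoo-ps rest on which libraries are at 0. The lone library of a group was then assumed to vary like the other group. A further 38 refits lost and 12 gained the unadjusted threshold. At these depths members under about 20 counts carry large counting error.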
